A study of Mus musculus with 4 samples.

Results

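The integrin alpha and beta subunit genes and the laminin chain genes were examined in 4 RNA-seq libraries of female mouse embryonic stem cells (mESCs). Members were taken by name from the gene table. They were the listed genes outside chromosome 13 named Itga or Itgb with a number, a number and a letter or 1 letter, or named Lama, Lamb or Lamc with a number. The rule gave 36 of 25965 listed genes, namely 16 integrin alpha subunits, 9 integrin beta subunits and 11 laminin chains. A further 2 genes with names of this form, the integrin alpha subunits Itga1 and Itga2, lie on chromosome 13 and were not analysed here.

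The cells were an mESC line from an F1 cross of the FVB and CAST strains. The day 0 library came from cells expanded in 2i medium before differentiation, and its genotype field reads nonsilencing control. The other 3 libraries came from day 6 of weaning into the serum medium DME HiHi. Those cells had received a retroviral short hairpin RNA on day 2 and puromycin on day 3. The hairpin was Nons, a non-silencing control, or Smarca4.4 or Smarca4.6, which target Smarca4. Smarca4 encodes BRG1, an ATPase of the BAF chromatin remodelling complex. Per the methods of the study, mESCs were kept in suspension and then attached to gelatin-coated plates before differentiation, with no laminin coating named. Each group holds 1 library, and all of them carry replicate number 3, so no difference below has a replicate check and no p-value was computed. A genotype field of the labels calls all 3 day 6 libraries a Smarcc knockdown, Nons included, so groups were taken from the titles. Day 0 and Nons differ in medium, time, transduction and selection together, and these cannot be told apart. The methods do not say whether the day 0 cells were in suspension or attached when collected, so attachment may differ as well.

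Integrins are receptors for the extracellular matrix at the cell surface, each built from 1 alpha and 1 beta subunit. Beta 1 pairs with most alpha subunits, whereas beta 4 pairs with alpha 6 alone and the beta 3, 5, 6 and 8 subunits pair with alpha v. Laminins are trimers of an alpha, a beta and a gamma chain and are the main adhesive proteins of basement membranes, which early embryonic epithelia lay down and bind through integrins. The libraries measure transcripts of subunits, not assembled receptors or trimers.

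The guide strands of the 3 hairpins are shown because every comparison at day 6 rests on them. Capitals mark the seed, bases 2 to 8 from the 5′ end.
Nons: cTTACTCTcgcccaagcgagag
Smarca4.4: tTTATTACtgtctgactccagt
Smarca4.6: tTGCATAAtagtgttcatcagt
A full 22-base site for the Smarca4.4 guide lies in an untranslated exon of 3 of the 4 annotated Smarca4 transcripts, at chr9:21703327-21703348 (GRCm38, the mm10 build). The site of the Smarca4.6 guide lies in a coding exon of 4 of 4 transcripts, at chr9:21670504-21670525. The Nons guide had no full site in Smarca4, and no guide had a full site in the annotated transcripts of any member. Smarca4 itself was at 7.93 log2 CPM at day 0, 7.84 in Nons, 7.04 with Smarca4.4 and 7.44 with Smarca4.6. The hairpin libraries thus held 57.3% and 75.8% of the Nons level, so the transcript was reduced but present in both.

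Levels are given as deposited, in log2 CPM (reads scaled to the total of the library, on a log2 scale). The libraries held 18599402 reads at day 0, 45759793 in Nons, 47143727 with Smarca4.4 and 36495582 with Smarca4.6. The deposited values were whole multiples of 1 read, so reads could be recovered. Differences of pathway genes outside the set are mostly given without an interval. Those of members mostly carry an exact (Clopper-Pearson) 95% interval of the ratio of reads. These intervals cover counting error only, and the reads are not independent molecules. A count of 0 reads allows a level of up to 0.161, 0.0656, 0.0636 and 0.0822 CPM in the 4 libraries in the same order (3 reads). Counts of members use the 23 that passed a mean log2 CPM of at least 0 over the 4 libraries, 9 alpha subunits, 6 beta subunits and 8 laminin chains, set beside the 13264 genes of the table that passed. All 8 markers of pluripotent cells were above 3 reads in every library, and their summed level was 4389 CPM at day 0, 1094 in Nons, 857 with Smarca4.4 and 1127 with Smarca4.6. Most of the day 6 sum was Pou5f1, at 9.50 log2 CPM at day 0 and 9.84, 9.45 and 9.94 at day 6, while the other 7 were lower in each day 6 library. In these bulk samples fewer cells of a type and less RNA per cell cannot be told apart.

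Beta 1 and alpha 6 already had high levels in mESCs at day 0, and by day 6 members differed from that state in both directions. Of the 23 members, 13 were at least 2-fold higher in Nons at day 6 than at day 0 and 4 were at least 2-fold lower. Among all 13264 genes that passed, 19.6% were at least 2-fold higher and 12.3% were at least 2-fold lower. The 17 members past 2-fold made up 73.9% of the 23. The filter uses a mean over libraries mostly from day 6, which favours members with higher levels then. With no filter, 16 of the 36 members were at least 2-fold higher and 11 lower, 4 of the lower ones with 0 reads in both libraries. The share of all genes was not computed without the filter, so these counts cannot be set against the shares above. The median difference of the 23 members was 1.24 on the log2 scale, against 0.031 for all genes that passed. By class the median difference was 0.65 for alpha subunits, 1.56 for beta subunits and 0.30 for laminin chains, whose 8 members split into 4 higher and 4 lower. With so even a split the laminin median changed sign with the filter, to -0.64 over the 7 chains with a mean of at least 3 log2 CPM and to 1.24 over all 11 chains, and the alpha median was 0.12 over all 16 subunits.

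**Figure D1:**
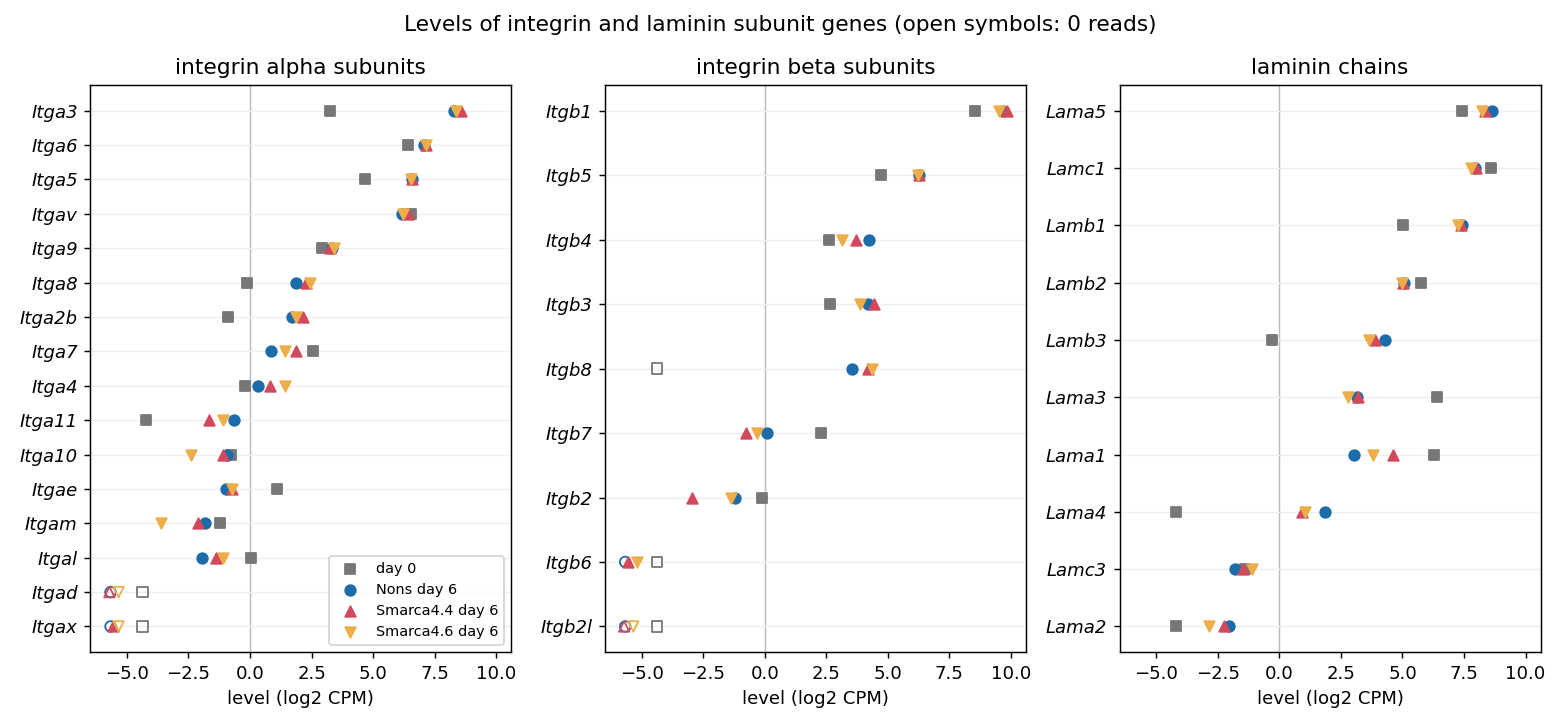
Level of 35 of the 36 members (log2 CPM) in the 4 libraries, by class. Symbols mark the library, open symbols mark 0 reads, which the file writes as a small value set by depth, and the grey line is 0 log2 CPM. Itga3, Lamb3 and Itgb8 have their day 0 symbol far to the left of the 3 day 6 symbols, and Lama1 and Lama3 far to the right.

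Among the alpha subunits that bind laminin, alpha 3 stood apart. Itga3 (chr11:95044474-95076801, mm10, reverse strand) was at 3.23 log2 CPM at day 0 with 175 reads, and at 8.28 in Nons, 8.57 with Smarca4.4 and 8.39 with Smarca4.6. Its difference between Nons and day 0 was 5.05 (95% interval 4.83 to 5.27), a 33.0-fold higher level. Itga6, the alpha subunit that joins either beta 1 or beta 4, was at 6.41, 7.06, 7.16 and 7.15 log2 CPM in the same order of libraries, a difference of 0.65 at day 6 (0.57 to 0.73). Itga7, the laminin receptor subunit best known from muscle, went the other way, from 2.56 at day 0 to 0.84 in Nons, 1.85 with Smarca4.4 and 1.42 with Smarca4.6, a difference of -1.72 (-2.15 to -1.30). The 3 laminin-binding alpha subunits thus ran from lower to much higher at day 6.

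The alpha subunits that recognise the RGD motif of matrix proteins were mostly higher at day 6. Itga5, the partner of beta 1 in the main fibronectin receptor, was at 4.66 log2 CPM at day 0 and at 6.59 in Nons, 6.60 with Smarca4.4 and 6.53 with Smarca4.6, a difference of 1.93 (1.79 to 2.07) for Nons. Itga8, a receptor subunit for nephronectin, was at -0.13, 1.88, 2.29 and 2.45 log2 CPM, and Nons was 2.01 above day 0 (1.28 to 2.82). Exons of Itga8 overlap those of another gene on the opposite strand over 5.05% of their length, and the strand setting of the counting was not stated. Itga2b, the alpha subunit of the platelet fibrinogen receptor, was at -0.90, 1.72, 2.16 and 1.89 log2 CPM, 2.62 above day 0 in Nons (1.70 to 3.71) from 10 and 151 reads. The summed level of 6 megakaryocyte markers was 1.34 CPM at day 0 and between 0.137 and 0.445 CPM at day 6, with 1 of the 6 above 3 reads in each library and Gp9 and Gp6 at 0 reads throughout. Itgav, which pairs with several beta subunits, was close to level, at 6.52, 6.19, 6.44 and 6.21 log2 CPM, a difference of -0.33 (-0.42 to -0.25), and overlaps an opposite-strand gene over 5.90% of its exonic length.

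Itga4 and Itga9, which share beta 1 as a partner and bind VCAM1, fibronectin or tenascin, were not past 2-fold between Nons and day 0. Itga4 was at -0.22 log2 CPM at day 0 and 0.32 in Nons, from 16 and 57 reads. Its difference was 0.53, with an interval (-0.29 to 1.43) that included 0 but also reached past 2-fold. Its exons overlap the opposite-strand gene Cerkl over 8.04% of their length. Itga9 differed by 0.42 (0.14 to 0.70).

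Among the beta subunits, 5 of the 6 that passed were at least 2-fold higher at day 6 and 1 was lower. Itgb1 (chr8:128685654-128733200, mm10, forward strand), the partner of most alpha subunits above, was at 8.56 log2 CPM at day 0, 9.69 in Nons, 9.83 with Smarca4.4 and 9.53 with Smarca4.6, and Nons was 1.13 above day 0 (1.09 to 1.17). The 3 day 6 libraries held 26890 to 42898 reads of Itgb1, so its intervals are among the narrowest of the set. Itgb5, a vitronectin receptor subunit, was at 4.71, 6.29, 6.26 and 6.23 log2 CPM, a difference of 1.58 (1.44 to 1.72). Itgb3, which pairs with alpha v or with Itga2b, was at 2.65, 4.20, 4.44 and 3.88 log2 CPM, a difference of 1.55 (1.27 to 1.84). Itgb4, the subunit of hemidesmosomes, which anchor epithelial cells to laminin, was at 2.63, 4.23, 3.73 and 3.12 log2 CPM, a difference of 1.60 (1.32 to 1.90). Exons of Itgb4 overlap an opposite-strand gene over 537 bases, or 7.66% of their length.

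Itgb8 (chr12:119158022-119238802, mm10, reverse strand), which with alpha v binds and activates latent TGF-beta, had 0 reads at day 0 and 541 in Nons, 870 with Smarca4.4 and 750 with Smarca4.6. Set against the limit of 3 reads at day 0, its level in Nons was at least 73.3-fold higher, or at least 6.20 on the log2 scale. The day 6 levels of Itgb8 were 3.56, 4.21 and 4.36 log2 CPM. Itgb7, a partner of alpha 4 and alpha E best known from lymphocytes, was lower at day 6, at 2.27 log2 CPM at day 0 and 0.10, -0.75 and -0.33 at day 6 from 28 to 49 reads. Its difference in Nons was -2.18 (-2.71 to -1.66).

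The laminin chains showed the most even split. In the alpha chains, Lama5 (chr2:180176373-180225859, mm10, reverse strand), the most widely made laminin alpha chain of epithelia, was at 7.41 log2 CPM at day 0, 8.65 in Nons, 8.36 with Smarca4.4 and 8.23 with Smarca4.6, a difference of 1.24 (1.18 to 1.29). Lama1 (chr17:67697265-67822645, mm10, forward strand), the alpha chain of the first embryonic basement membranes, was at 6.28 log2 CPM at day 0 and 3.03 in Nons, 4.63 with Smarca4.4 and 3.82 with Smarca4.6, a difference of -3.26 (-3.43 to -3.09). Lama3, the alpha chain of the laminin found beneath hemidesmosomes, was at 6.42, 3.15, 3.19 and 2.78 log2 CPM, a difference of -3.27 (-3.43 to -3.11). It overlaps an opposite-strand gene over 197 exonic bases, or 1.83% of its length. Lama1 and Lama3 thus held lower levels in each day 6 library than at day 0, while Lama5 was higher in each.

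The beta chains were also exchanged. Lamb1, which joins Lama1 or Lama5 with Lamc1, was at 5.02 log2 CPM at day 0, 7.42 in Nons, 7.36 with Smarca4.4 and 7.25 with Smarca4.6, a difference of 2.40 (2.28 to 2.52). Lamb2, the alternative beta chain of such trimers, was at 5.76, 5.05, 5.04 and 4.96 log2 CPM, a difference of -0.71 (-0.83 to -0.59). Lamb3 encodes a beta chain that joins Lama3 in the hemidesmosomal laminin. Lamb3 (chr1:193301957-193343878, mm10, forward strand) was at -0.31 log2 CPM at day 0 with 15 reads, and at 4.29 in Nons, 3.87 with Smarca4.4 and 3.65 with Smarca4.6, a log2 difference with an interval of 3.87 to 5.44 and a 24.2-fold higher level. With 1 CPM added to each level, the log2 difference was 3.51 for Lamb3, 1.48 for Itga2b, 1.29 for Itga8 and -1.495 for Itgb7. For Itgb8 it was 3.68. Each was over 1.5 times nearer to 0 in fold. Lamc1, the gamma chain of most laminins, was at 8.58, 7.94, 7.97 and 7.80 log2 CPM, a difference of -0.64 (-0.69 to -0.60). Lamb1 and Lamb3 were therefore higher in each day 6 library than at day 0, and Lamb2 and Lamc1 lower.

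**Figure D2:**
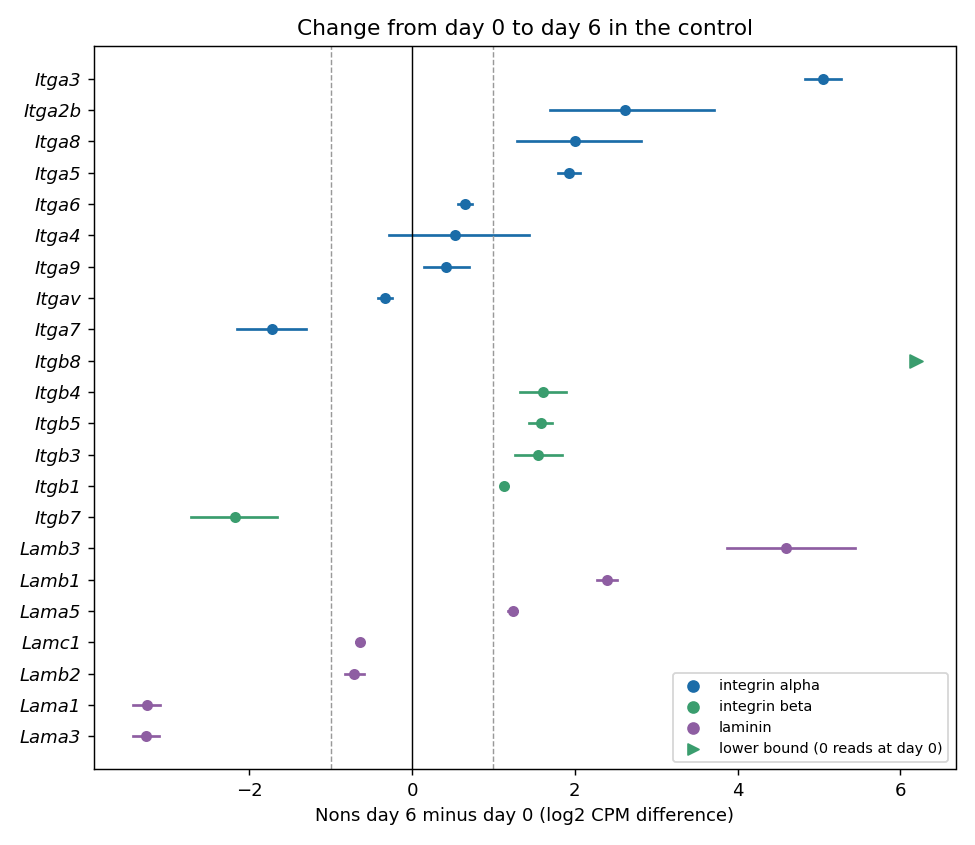
Difference between Nons at day 6 and day 0 (log2 CPM) for 22 of the 23 members that passed the filter, with exact 95% intervals of counting error and dashed lines at 2-fold. Itga3 lies at 5.05 with Lamb3 just below it, and Itgb8 is drawn as a bound at 6.20, set against 3 reads at day 0. Lama1 and Lama3 lie at -3.26 and -3.27.

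Markers of other cell types differed between day 0 and day 6 as well. The summed level of the simple epithelium markers Krt8, Krt18, Epcam and Cdh1 was 379.7 CPM at day 0 and 2787, 2905 and 2513 CPM at day 6, with 4 of 4 above 3 reads in every library. The basal epithelium markers Krt5, Krt14 and Trp63 summed to 0.215 CPM at day 0 and 0.615 to 0.962 CPM at day 6, with Krt5 at 0 to 5 reads and Krt14 at 0 reads at day 0. The 4 smooth muscle markers summed to 0.753 CPM at day 0 and 1062, 783 and 668 CPM at day 6, Acta2 being at 0 reads at day 0. The 6 extraembryonic endoderm markers summed to 9.79 CPM at day 0 and 27.0 to 33.4 CPM at day 6. Most of that sum at day 6 was Dab2, with 34 reads at day 0 and 1010 in Nons, while Gata6 was at 1.83 and -0.71 log2 CPM, Sox7 at 0.87 and -1.43 and Foxa2 at -2.22 and -3.19. Summed levels at day 0 and day 6 were for the 7 fibroblast markers 11.5 and 26.6 to 29.9 CPM, and for the 6 endothelial markers 12.4 and 5.51 to 6.67 CPM with Emcn at 0 reads. Both lists held markers that went opposite ways between day 0 and Nons. Col1a1 was at 1.51 and 4.07 log2 CPM and Pdgfrb at 2.24 and 0.75, while Erg had 67 and 4 reads and Tie1 had 1 and 31. The 3 skeletal muscle markers stayed between 0.161 and 0.445 CPM. The part of these cell types in the subunit differences was not tested.

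The 13 members below the filter were mostly subunits of leukocytes or of mature connective tissue. Itgad and Itgb2l had 0 reads in every library, Itgax had 1 read in Smarca4.4 alone, and Itgb6 had 1 read in each Smarca4 hairpin library and 0 in the others. The leukocyte subunits Itgal, Itgam, Itgae and Itgb2 had between 3 and 40 reads in each library. Of these, Itgae differed by -2.10 on the log2 scale between Nons and day 0 (-2.90 to -1.32) and Itgal by -1.96 (-3.14 to -0.84). Most of the exonic length of Itgam (68.7%) is shared with another annotated gene on the same strand, as is 33.5% of Itga10. Among 6 leukocyte markers found, 3 were above 3 reads in every library, Ptprc had 0 reads throughout, and the summed level was 91.9 CPM at day 0 and 28.9 to 43.4 CPM at day 6. Between day 0 and Nons Laptm5 went from 1554 reads to 117 and Coro1a from 12 to 1472, and Csf1r was at 2.95 and 3.10 log2 CPM. The part of leukocytes in these values was not tested.

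Itga10 and Itga11, the collagen-binding subunits of the set, and the laminin chains Lama2, Lama4 and Lamc3 made up the rest. Collagen receptors as a whole were not examined, because Itga1 and Itga2 on chromosome 13 are outside the set. Itga10 had 7 to 24 reads in each library, and Lamc3 had 7 to 17. Itga11 had 1 read at day 0 and 15 to 29 at day 6, and Lama2 had 1 read and 5 to 11. Lama2 and Lamc3 overlap opposite-strand genes over 3.86% and 6.27% of their exonic length. Lama4, a chain of vascular and mesenchymal basement membranes, had 1 read at day 0 and 167 in Nons, 89 with Smarca4.4 and 74 with Smarca4.6. The level of Lama4 in Nons was 67.9-fold that at day 0, with a log2 interval of 3.59 to 11.4 that reflects the single read. Its mean over the libraries fell short of the filter through that day 0 value.

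Between genes, levels were compared per length, as CPM per kilobase of annotated exon. Summed over the class, alpha subunits held 27.6 CPM per kilobase at day 0, 98.6 in Nons, 114 with Smarca4.4 and 104 with Smarca4.6. Beta subunits held 104, 232, 252 and 208 CPM per kilobase in the same order. The sum for alpha subunits was 0.265 of that for beta subunits at day 0 and 0.425, 0.451 and 0.4999 of it at day 6. The alpha sums and the shares below leave out Itga1 and Itga2 on chromosome 13, so they do not cover every alpha subunit. With the length of the longest transcript instead of all exons, the same ratios were 0.398, 0.527, 0.556 and 0.621.

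A change of the leading alpha subunit accompanied these sums. At day 0 Itga6 held 34.1% of the alpha sum, Itgav 31.1%, Itga5 18.5% and Itga3 5.98%. In Nons Itga3 held 55.2%, Itga5 19.7%, Itga6 15.0% and Itgav 6.90%. Itga3 also led in Smarca4.4 with 58.5% and in Smarca4.6 with 56.5%. With the length of the longest transcript, the leaders were the same but their shares differed. Itga6 then held 44.4% at day 0, and Itga3 held 48.8% in Nons, 51.9% with Smarca4.4 and 49.8% with Smarca4.6. By that length Itga6 also ranked above Itga5 in Nons. The beta sum had the same leader in every library, Itgb1 holding 89.1% at day 0 and 87.3%, 88.5% and 86.9% at day 6. Itgb5 came next with 7.08% at day 0 and 8.54% to 10.2% at day 6, and each other beta subunit stayed below 2%.

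Laminin chains summed to 90.7 CPM per kilobase at day 0, 99.99 in Nons, 92.98 with Smarca4.4 and 83.0 with Smarca4.6, so the total differed far less than its makeup. Among alpha chains, the share of Lama5 was 48.2% at day 0 and 94.7% in Nons. Lama1 held 26.01% at day 0 and 2.27% in Nons, and Lama3 held 25.7% and 2.23%. The leading beta chain was Lamb2 at day 0, with 72.5% of the beta chain sum, and Lamb1 in Nons, with 67.2%. Lamb3 held 0.989% of that sum at day 0 and 11.5% in Nons. Per kilobase, the day 0 library was thus led by Lama5, Lamb2 and Lamc1, and each day 6 library by Lama5, Lamb1 and Lamc1.

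**Figure D3:**
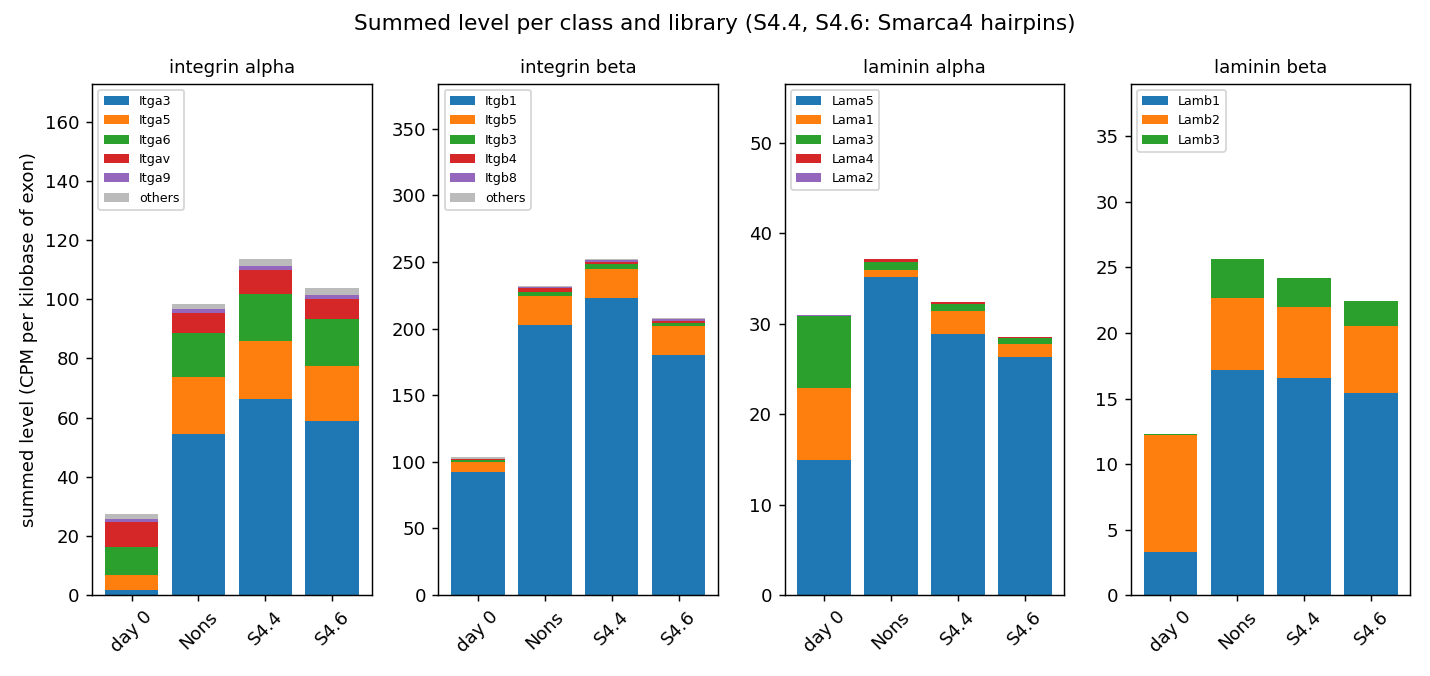
Level summed over integrin alpha and beta subunits and laminin alpha and beta chains (CPM per kilobase of exon) in day 0, Nons and the Smarca4.4 and Smarca4.6 libraries (S4.4 and S4.6), divided by gene, with separate axes per panel. Itga3 makes up 55.2% to 58.5% of the alpha bar at day 6 and 5.98% of it at day 0, and Lamb1 replaces Lamb2 as the largest part of the laminin beta bar.

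RefSeq promoter sequence (GRCm38.p6, 250 bases before to 50 after the annotated start) was matched for 22 of the 36 members. The promoters of Itga3, Lama5 and Lamb3 are shown because Itga3 led the alpha subunits at day 6, Lama5 led the laminin alpha chains in every library and Lamb3 had the highest difference at day 6 of the laminin chains that passed the filter. Capitals mark the GC box GGGCGG on either strand.
Itga3, chr11:95076665-95076964, reverse strand: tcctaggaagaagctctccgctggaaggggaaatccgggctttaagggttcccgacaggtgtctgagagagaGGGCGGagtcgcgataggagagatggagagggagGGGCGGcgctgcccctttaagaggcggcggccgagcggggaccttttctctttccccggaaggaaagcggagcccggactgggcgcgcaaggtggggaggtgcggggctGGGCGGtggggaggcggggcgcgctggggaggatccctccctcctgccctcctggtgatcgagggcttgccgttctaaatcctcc
Lama5, chr2:180225810-180226109, reverse strand: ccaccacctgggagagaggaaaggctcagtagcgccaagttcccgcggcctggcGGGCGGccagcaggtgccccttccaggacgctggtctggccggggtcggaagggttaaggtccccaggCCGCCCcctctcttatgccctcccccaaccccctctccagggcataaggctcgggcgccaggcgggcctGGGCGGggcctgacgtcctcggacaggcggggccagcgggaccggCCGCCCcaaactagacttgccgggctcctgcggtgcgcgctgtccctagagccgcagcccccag
Lamb3, chr1:193301744-193302043, forward strand: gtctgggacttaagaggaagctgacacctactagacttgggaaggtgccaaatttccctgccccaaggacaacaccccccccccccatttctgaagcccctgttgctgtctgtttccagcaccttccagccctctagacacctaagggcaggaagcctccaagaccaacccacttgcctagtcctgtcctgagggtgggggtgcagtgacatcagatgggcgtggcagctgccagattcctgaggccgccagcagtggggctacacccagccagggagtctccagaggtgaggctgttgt
The Itga3 promoter held 3 GC boxes and 24 CpG dinucleotides at 66.7% G and C, and that of Lama5 held 4 GC boxes and 24 CpG at 72.7%. The Lamb3 promoter held no GC box and 2 CpG at 59.3%. Over all 32851 promoters of the table the median was 7 CpG (quartiles 3 and 20). A GC box was present in 10 of the 22 member promoters, against 35.7% of all promoters. The AP-1 motif TGANTCA was present in 2 of 22, against 7.81%, 1 of them in an Itga9 entry that starts 105002 bases inside the gene, and the TATA box TATAAA in 0 of 22, against 13.6%, both strands being searched. These matches describe letters in the window and not sites in use.

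With the Smarca4 hairpins, differences from Nons at day 6 were small beside those between day 0 and day 6. In Smarca4.4, 2 of the 23 members were at least 2-fold higher than in Nons (Itga7 and Lama1) and 0 were lower, while 0.882% of all genes that passed were at least 2-fold higher and 0.309% lower. In Smarca4.6, 1 member was at least 2-fold higher (Itga4) and 1 lower (Itgb4), against 1.03% and 0.799% of all genes. No member was past 2-fold in the same direction with both hairpins, against 0.392% of genes for higher and 0.121% for lower. Both differences use the same Nons library and are therefore not independent. The median difference of the 23 members was 0.038 in Smarca4.4 and -0.058 in Smarca4.6, and that of all genes that passed was 0.038 and 0.064.

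The intervals of 6 members lay above 0 with both hairpins. Lama1, which was lower in Nons than at day 0, was 1.60 higher in Smarca4.4 than in Nons (1.43 to 1.77) and 0.79 higher in Smarca4.6 (0.60 to 0.99). Its reads were 373 in Nons, 1164 with Smarca4.4 and 515 with Smarca4.6, so both hairpin libraries lay between Nons and day 0 in level. Itga7 had the same order of levels, 1.01 higher in Smarca4.4 (0.62 to 1.41) and 0.58 higher in Smarca4.6 (0.15 to 1.03) from 82, 170 and 98 reads. The difference of 1.01 fell below 2-fold when 1 CPM was added to each level and when the libraries were centred on the autosomal median. The extraembryonic endoderm markers, of which 6 of 6 were above 3 reads in each library, summed to 27.0 CPM in Nons, 33.4 with Smarca4.4 and 33.2 with Smarca4.6. Most of each sum was Dab2, at 4.46, 4.71 and 4.67 log2 CPM. Gata4, Sox17 and Sox7 were higher than Nons with both hairpins. Gata6 was at -0.71, 0.085 and -1.49 log2 CPM, and Foxa2 had 5, 5 and 8 reads. The part of these markers in the Lama1 values was not tested.

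Itgb8 and Itga8, which were higher in Nons than at day 0, were higher again with both hairpins. Itgb8 was 0.64 above Nons in Smarca4.4 (0.49 to 0.80) and 0.80 above it in Smarca4.6 (0.64 to 0.96). Itga8 was 0.41 above Nons (0.12 to 0.71) and 0.58 above it (0.27 to 0.88). Itga3 was 0.29 higher (0.26 to 0.32) and 0.11 higher (0.075 to 0.14), and Itga6 was 0.10 higher (0.053 to 0.15) and 0.096 higher (0.043 to 0.15). The median difference of all autosomal genes that passed was itself 0.032 with Smarca4.4 and 0.061 with Smarca4.6. Centred on it, the Itga6 differences were 0.070 and 0.035 and those of Itga3 were 0.25 and 0.048.

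Members with both intervals below 0 included the laminin chains Lamb3, Lama5 and Lamb1 and the integrin subunit Itgb4. Lamb3 differed from Nons by -0.42 with Smarca4.4 (-0.57 to -0.28) and by -0.64 in Smarca4.6 (-0.81 to -0.48). Lama5 differed by -0.29 (-0.32 to -0.26) and -0.42 (-0.45 to -0.38), and Lamb1 by -0.053 (-0.099 to -0.0077) and -0.16 (-0.21 to -0.11). Itgb4, the hemidesmosomal beta subunit, differed by -0.51 (-0.66 to -0.36) and -1.11 (-1.30 to -0.92). These 4 genes were higher in Nons than at day 0, and each remained above its day 0 level in both hairpin libraries. The simple epithelium markers summed to 2787 CPM in Nons, 2905 with Smarca4.4 and 2513 with Smarca4.6 with 4 of 4 above 3 reads, and the basal epithelium markers to 0.962, 0.615 and 0.849 CPM. The smooth muscle markers summed to 1062, 783 and 668 CPM in the same order of libraries. The part of these cell types in the differences was not tested.

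For other members the interval excluded 0 with 1 of the hairpins, which by itself does not show that the hairpins differ. Between Smarca4.4 and Smarca4.6 directly, the interval excluded 0 for Itga4 (-0.64), Itgav (0.22) and Lama3 (0.41). It included 0 for Itga2b and Itgb7. Itga4 was 1.12 higher in Smarca4.6 (0.64 to 1.62) from 57 and 99 reads, and 0.48 higher in Smarca4.4 with an interval of -0.024 to 1.00. The difference of 1.12 fell below 2-fold when 1 CPM was added to each level. Itga2b differed by 0.44 in Smarca4.4 (0.13 to 0.75) and 0.16 in Smarca4.6 (-0.18 to 0.51), and Itgav by 0.24 (0.18 to 0.31) and 0.023 (-0.051 to 0.096). Itgb7 differed by -0.85 (-1.58 to -0.15) and -0.43 (-1.15 to 0.26), and Lama3 by 0.033 (-0.17 to 0.23) and -0.38 (-0.61 to -0.15). For Itga5, Itga9, Itgb5 and Lamb2 the intervals included 0 with both hairpins. Centring on the autosomal median moved the Itga5 value in Smarca4.4 from 0.011 to -0.021 and the Itgav value in Smarca4.6 from 0.023 to -0.039. In Smarca4.6 centring gave -0.11 for Itga5, -0.12 for Itgb5 and -0.15 for Lamb2, each further from 0 than its counting error. Whether these intervals include 0 thus rests on the scaling.

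Itgb1, Itgb3 and Lamc1 lay on opposite sides of Nons in the hairpin libraries. Itgb1 differed by 0.14 in Smarca4.4 (0.12 to 0.16) and by -0.16 in Smarca4.6 (-0.19 to -0.14). Itgb3 differed by 0.24 (0.11 to 0.37) and -0.32 (-0.48 to -0.16), and Lamc1 by 0.038 (0.000995 to 0.076) and -0.14 (-0.18 to -0.096). Centred on the autosomal median, the Smarca4.4 difference of Lamc1 was 0.0060, within its counting error of 0, so its opposite sides rest on the scaling. Below the filter, Lama4 differed by -0.95 in Smarca4.4 (-1.34 to -0.57) and -0.85 in Smarca4.6 (-1.26 to -0.44).

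**Figure D4:**
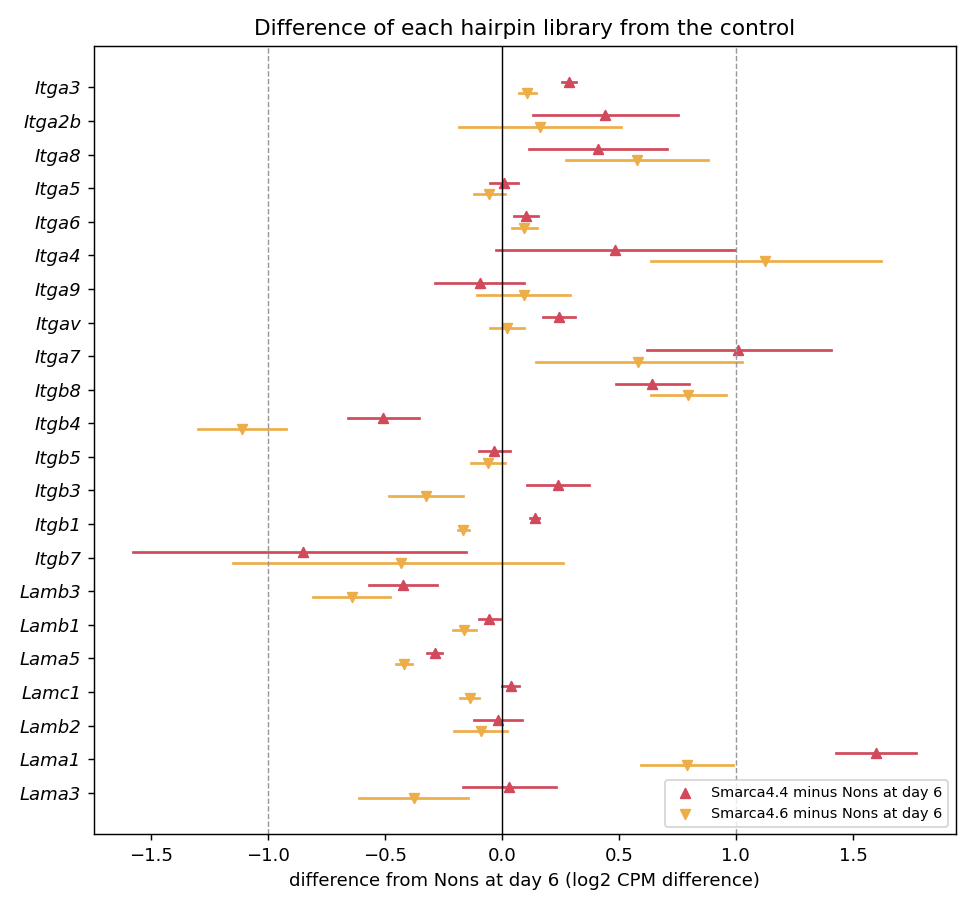
Difference of each hairpin library from Nons at day 6 (log2 CPM) for 22 of the 23 members that passed the filter, with exact 95% intervals of counting error and dashed lines at 2-fold. Lama1 lies at 1.60 and 0.79 and Itgb4 at -0.51 and -1.11, and most other members lie within 2-fold of Nons with both hairpins.

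By class, the median difference of alpha subunits from Nons was 0.29 in Smarca4.4 and 0.11 in Smarca4.6. For beta subunits it was 0.054 and -0.24, and for laminin chains -0.035 and -0.27. Among laminin alpha chains, Lama1 held 2.27% of the per-length sum in Nons, 7.87% with Smarca4.4 and 5.10% with Smarca4.6. Lama5 held 94.7%, 89.0% and 92.1%. The share of Lamb3 in the beta chains was 11.5%, 9.14% and 8.46%.

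The 2 hairpins were also compared with each other. No member was past 2-fold between Smarca4.4 and Smarca4.6, against 0.415% of all genes for higher in Smarca4.4 and 0.241% for lower. The 8 laminin chains that passed were all higher in Smarca4.4, by 0.072 to 0.81, with a median of 0.20 against -0.031 for all genes that passed. Lama1 differed most among them, by 0.81 (0.66 to 0.96). The interval of Lamb2 included 0. Of the integrins, Itgb4 was 0.60 higher in Smarca4.4 (0.41 to 0.80), Itgb3 0.56 higher (0.41 to 0.72), and Itgb1 0.30 higher (0.28 to 0.33). Integrins past the filter with an interval below 0 were Itga4 and Itgb8, with a difference of -0.64 for Itga4 (-1.08 to -0.20) and -0.16 for Itgb8 (-0.30 to -0.012). Smarca4 itself was lower in Smarca4.4 than in Smarca4.6, and how far these members follow its level was not tested.

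Inside the cell, integrins act through adaptor proteins that join them to actin. Of 30 listed adaptor and signalling genes, 29 were found and 27 passed. Of these 27, 16 were at least 2-fold higher in Nons than at day 0 and 5 at least 2-fold lower (19.6% and 12.3% of all genes that passed), with a median difference of 1.28. Talin 1 (Tln1) and kindlin 2 (Fermt2), which switch integrins to the active state, were 1.12 and 1.28 higher, and Tln2 differed by -1.05. Ilk, Parva and Lims2, whose products are parts of the complex of integrin-linked kinase, parvin and PINCH, were higher as well. Ilk was 2.88 higher and Parva 2.40 higher, and Lims2 went from 1 read at day 0 to 3.18 log2 CPM in Nons. Lims1, which also encodes a PINCH protein, was close to level, at 6.93 log2 CPM at day 0 and 7.03 in Nons. Zyx and Vcl, components of focal adhesions, were 4.64 and 1.65 higher. With either hairpin 0 of the 27 were at least 2-fold higher than Nons and 1 was lower, Lims2. Of all genes that passed, 0.882% were at least 2-fold higher and 0.309% lower with Smarca4.4, and 1.03% and 0.799% with Smarca4.6. Lims2 differed by -1.11 with Smarca4.4 and by -1.99 with Smarca4.6, and Lims1 by 0.20 and 0.031.

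Of 12 integrin ligands outside the laminins that passed, 5 were at least 2-fold higher at day 6 in Nons and 4 lower, set beside the same 19.6% and 12.3%. Cyr61 and Ctgf, matricellular ligands of several integrins, were 5.32 and 1.25 higher. Thbs1, or thrombospondin 1, was 9.56 higher (8.68 to 10.6) from 10 reads at day 0. Fn1, or fibronectin, differed by -3.10 and Spp1, or osteopontin, by -2.34. Npnt, the nephronectin ligand of Itga8, was 1.24 higher, and Tgfb1, whose latent form alpha v beta 8 binds, was 6.05 higher (3.55 to 11.4) from 1 read at day 0. With either hairpin 0 of the 12 were past 2-fold from Nons, set beside the same small shares of all genes as for the adaptors. Between the hairpins 1 was, Thbs2, at 1.12 higher in Smarca4.4, against 0.415% of all genes.

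Among 10 other basement membrane genes and laminin receptors that passed, 3 were at least 2-fold higher in Nons than at day 0 and 3 lower. The shares of all genes that passed were 19.6% and 12.3%, and 10 genes are too few to compare with them. Agrin (Agrn), the Lutheran laminin receptor (Bcam) and Sparc were higher, by 1.03, 3.53 and 1.36. The nidogens Nid1 and Nid2, which link the laminin and collagen networks, differed by -2.99 and -1.26, and Ntn1, or netrin 1, by -4.10. Perlecan (Hspg2) differed by 0.99 and dystroglycan (Dag1), a laminin receptor that is not an integrin, by 0.12. Ntn1 was 1.10 higher in Smarca4.4 than in Nons and 0.89 higher in Smarca4.6, and no other gene of the 10 was past 2-fold with either hairpin. Of all genes that passed, 0.882% were at least 2-fold higher with Smarca4.4 and 1.03% with Smarca4.6. Ntn4, or netrin 4, which did not pass the filter, differed from Nons by -1.83 (-2.67 to -1.05) and -1.31 (-2.11 to -0.56) from 62, 18 and 20 reads.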

How the data were processed

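RNA was measured in 4 libraries, 1 per group. Per the labels and methods, the authors made paired-end libraries, trimmed reads with trim_galore, aligned them with hisat2 (tophat is also named) to the mm10 genome masked at positions that differ between FVB and CAST, and counted over exons in SeqMonk, combining both alleles. The deposited values are log2 CPM per gene. 0 value columns were left unmapped. With 1 library per group, no test across genes was run.

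Reads were recovered from the steps of the values, which were whole within 0.01 reads for 100% of values up to 1000 reads (0 reads are written as 0.9 of a step). Lengths were taken from GENCODE M21, in which 36 of 36 members were found, and promoters from RefSeq (GRCm38.p6). Guides come from the oligonucleotide table of the study. The work used matplotlib 3.10.9, pandas 2.3.3, scipy 1.17.1 and numpy 2.4.6 under Python 3.11.15, and the scripts were tested on simulated data. Members named in full differ at least 2-fold in any of 4 comparisons and pass the filter, are among the 3 highest per kilobase of their class in any library, or lie on opposite sides of Nons with the 2 hairpins. Members and gene lists were chosen with earlier results of these data known. Alternatives were other lengths, centring on the median of autosomal genes, adding 1 CPM to each level, dropping the filter, and raising it to a mean of 3 log2 CPM. Values of 1 member are not reported here.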

Additional observations from a re-analysis of the deposited data

Results flagged for a closer look

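For 3 members the hairpins gave differences from Nons on opposite sides, each with a counting interval that excluded 0. Itgb1 differed from Nons by 0.14 in Smarca4.4 and by -0.16 in Smarca4.6 on the log2 scale. Itgb3 differed by 0.24 and -0.32, and Lamc1 by 0.038 and -0.14. Centred on the autosomal median, the Lamc1 value in Smarca4.4 was 0.0060, within its counting error of 0. With 1 library per group, whether the hairpins differ beyond the spread between cultures was not tested.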

How the results depend on the processing

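When members needed a mean of 3 log2 CPM (16 members), 11 members were past 2-fold between Nons and day 0, 1 between Smarca4.4 and Nons and 1 between Smarca4.6 and Nons. With no filter (36 members) these were 27 for Nons and day 0, of which 4 had 0 reads in both libraries and so 23 can be read as differences, and 4 for Smarca4.6, and 3 members were past 2-fold between the hairpins. A pseudocount of 1 CPM left 1 member past 2-fold with each hairpin, and centring left 1 with Smarca4.4. The share of all genes past 2-fold was not computed at these settings, so these counts have no share to be set against. With the longest transcript as length, the sums for day 0, Nons, Smarca4.4 and Smarca4.6 were 44.3, 131, 150.3 and 138 CPM per kilobase for alpha subunits, 111, 248, 270.2 and 223 for beta subunits, and 98.6, 121, 112 and 100.4 for laminin chains. Of 48 alternative medians, 4 changed sign. The laminin median between Nons and day 0 went from 0.30 to -0.64 under the stricter filter. With no filter, the beta median went from 0.054 to -0.032 with Smarca4.4 against Nons and from 0.17 to -0.16 between the hairpins, and the alpha median between the hairpins from 0.064 to -0.0075. Of 184 alternative differences of single members, 2 changed sign, those of Itga5 with Smarca4.4 and Itgav with Smarca4.6 under centring, neither past 2-fold. No paired analysis was possible because there is 1 library in a group. Depth limits members below the filter, of which 4 stood at or under 3 reads in both libraries of each comparison.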
